A study of Mus musculus with 24 samples.

Results

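The genes described here encode the activin and inhibin subunits, the follistatins that bind them, 2 of their receptors and the related ligand Nodal, as measured by RNA-seq at the mouse maternal-fetal interface (MFI). They were taken by gene name and comprise Inha, Inhba, Inhbb, Fst, Fstl1, Fstl3, Acvr1, Acvr2a and Nodal, 9 of the 55401 genes counted. PolyA RNA was sequenced from the MFI of pregnant wild-type (WT) mice and of homozygous C1qtnf6-KO mice, which lack exons of C1qtnf6, the gene of the secreted protein CTRP6. Tissue was collected on gestation days (gd), at the stages gd10.5, gd14.5, gd16.5 and, close to term, gd19.5. With 3 libraries for each genotype and stage, 24 libraries fall into 8 groups. All mice were on the C57BL/6 background. The deletion was made by CRISPR engineering and is carried by the whole animal, and the KO mice come from a single commercial strain (C57BL/6JCya). The labels name no litter, dam, date or sequencing run, so that p-values measure the spread between these libraries, which may in part be technical.

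Activins are dimers of beta subunits, and inhibins pair the alpha subunit with a beta subunit. Activins bind a type II receptor, which recruits a type I receptor and leads to phosphorylation of Smad2 and Smad3, whereas inhibins compete for the type II receptor. Follistatin and follistatin-like 3 are secreted proteins that wrap around activin and keep it from its receptors. Decidual stroma, endometrium and trophoblast are known sources of activins, inhibins and follistatin during pregnancy.

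On GRCm38, with coordinates from the deposited table, Inhba lies on chromosome 13 from 16011851 to 16031621 on the plus strand and Inhbb on chromosome 1 from 119415465 to 119422248 on the minus strand. The positions of all 9 genes were identical to those of GENCODE M21, where each is a protein-coding gene. The promoter sequences of these 2 genes are shown because their transcripts rose together from gd10.5 to gd14.5 and took different courses afterwards. They are the 250 bases before the RefSeq start (GRCm38.p6), at chr13:16011601-16011850 on the plus strand for Inhba and at chr1:119422249-119422498 on the minus strand for Inhbb, written 5′ to 3′. Capitals mark, in Inhba, the letters TATAAA, known as the TATA box, and, in Inhbb, a match on the opposite strand to GGGCGG, known as the GC box. Both motifs were searched on both strands and at any position in the 250 bases, and whether the matches act in transcription was not tested.
Inhba: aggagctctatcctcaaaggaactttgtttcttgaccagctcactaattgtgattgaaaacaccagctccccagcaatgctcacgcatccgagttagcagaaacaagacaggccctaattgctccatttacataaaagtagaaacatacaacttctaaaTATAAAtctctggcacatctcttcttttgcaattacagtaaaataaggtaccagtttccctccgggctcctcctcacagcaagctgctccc
Inhbb: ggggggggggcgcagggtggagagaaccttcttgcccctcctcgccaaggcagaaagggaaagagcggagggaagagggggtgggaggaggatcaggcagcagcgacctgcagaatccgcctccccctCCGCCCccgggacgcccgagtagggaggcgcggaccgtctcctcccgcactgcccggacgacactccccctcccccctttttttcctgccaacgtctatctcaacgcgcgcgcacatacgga

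The promoters of the beta subunit genes differed in base composition. The Inhba window was 43.2% G and C with 3 CpG dinucleotides, and the Inhbb window was 68.0% G and C with 21. Over all 32851 RefSeq promoter windows of 250 bases, the median was 52.4% G and C (quartiles 45.2% and 61.2%) with 6.0 CpG dinucleotides (quartiles 2.0 and 16.0). The TATA letters were found once in the Inhba window and are held by 12.4% of all windows. The GC box letters were found once in the Inhbb window and are held by 32.7% of all windows. Neither window held the letters CAGAC (a Smad box, in 42.2% of all windows) or TGACGTCA (a cyclic AMP response element, in 1.55%). Of the 9 genes, 8 had a promoter entry, and the gene without one was Fst. The receptor genes had the richest windows, with 85.6% G and C and 46 CpG dinucleotides for Acvr1 and 82.0% and 49 for Acvr2a.

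Total counts per library ran from 20975717 to 37383108. The scale for levels is CPM, the counts per 1000000 of the TMM-normalized size of a library, with all 24 libraries normalized together. Comparisons between genes use RPKM, which divide CPM by the exonic length in kilobases. The deleted gene C1qtnf6 had between 64.7 and 168 CPM in the 12 WT libraries and at most 2.05 CPM in the 12 KO libraries. Replicate 2 of KO gd10.5 stood apart from the other libraries of its stage. The 3 spongiotrophoblast markers Tpbpa, Prl8a8 and Prl3a1 summed to 10348 CPM in it and to between 651 and 1774 CPM in the other 5 libraries of gd10.5. The 5 decidual stroma markers summed to 2316 CPM, against 3492 to 13282 CPM, and Y-linked transcripts to 71.0 CPM, against at most 0.311 CPM. At gd16.5, WT replicate 1 and KO replicates 1 and 2 held yolk sac endoderm markers (Afp, Ttr and Apoa4) at 4795, 4719 and 15911 CPM, against 44.6 to 109 CPM in the other 3 libraries. At gd10.5 the same sum was 2462 CPM in WT replicate 1 and 942 to 2141 CPM in the 3 KO libraries, against 8.12 and 10.8 CPM in WT replicates 2 and 3, so that no KO library of gd10.5 was low in these markers. Without the 3 libraries of gd16.5 that held them, a choice made after seeing the data, the count of called genes among the 8 tested was as reported in each comparison. That fit leaves 1 KO library at gd16.5, which is assumed to vary like the other groups. Without WT gd10.5 replicate 1, 7 of the 8 genes were called in WT from gd10.5 to gd14.5 and 8 of 8 from gd10.5 to gd19.5, as with it. With 1 WT library left out at a time, 48.3% to 56.9% and 58.8% to 65.4% of all genes were called in these comparisons. Results that rest on KO gd10.5 replicate 2 are given with and without it.

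In WT mice, the levels of the subunit and receptor genes were higher at gd19.5 than at gd10.5, while those of the follistatins were lower. All 8 genes that passed the expression filter were called (edgeR, adjusted p under 0.05), 5 higher and 3 lower, where 64.9% of the 18523 genes tested were called, 32.2% higher and 32.7% lower. A change over 2-fold was called for 6 of the 8, against 29.3% of all genes tested. The median absolute log2 fold change was 1.79 for the 8 genes and 0.57 for all genes tested. From gd10.5 to gd14.5, 7 of 8 genes were called, against 55.9% of all genes tested, 5 of them higher (27.7% of all genes) and 2 lower (28.3%). From gd14.5 to gd16.5 it was 3 of 8, against 22.4%, all 3 of them higher (12.5%), and from gd16.5 to gd19.5 it was 1 of 8, Inhba, against 7.97%. The stage comparisons of a genotype come from a joint fit of its 12 libraries and share the libraries of a stage.

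**Figure D1:**
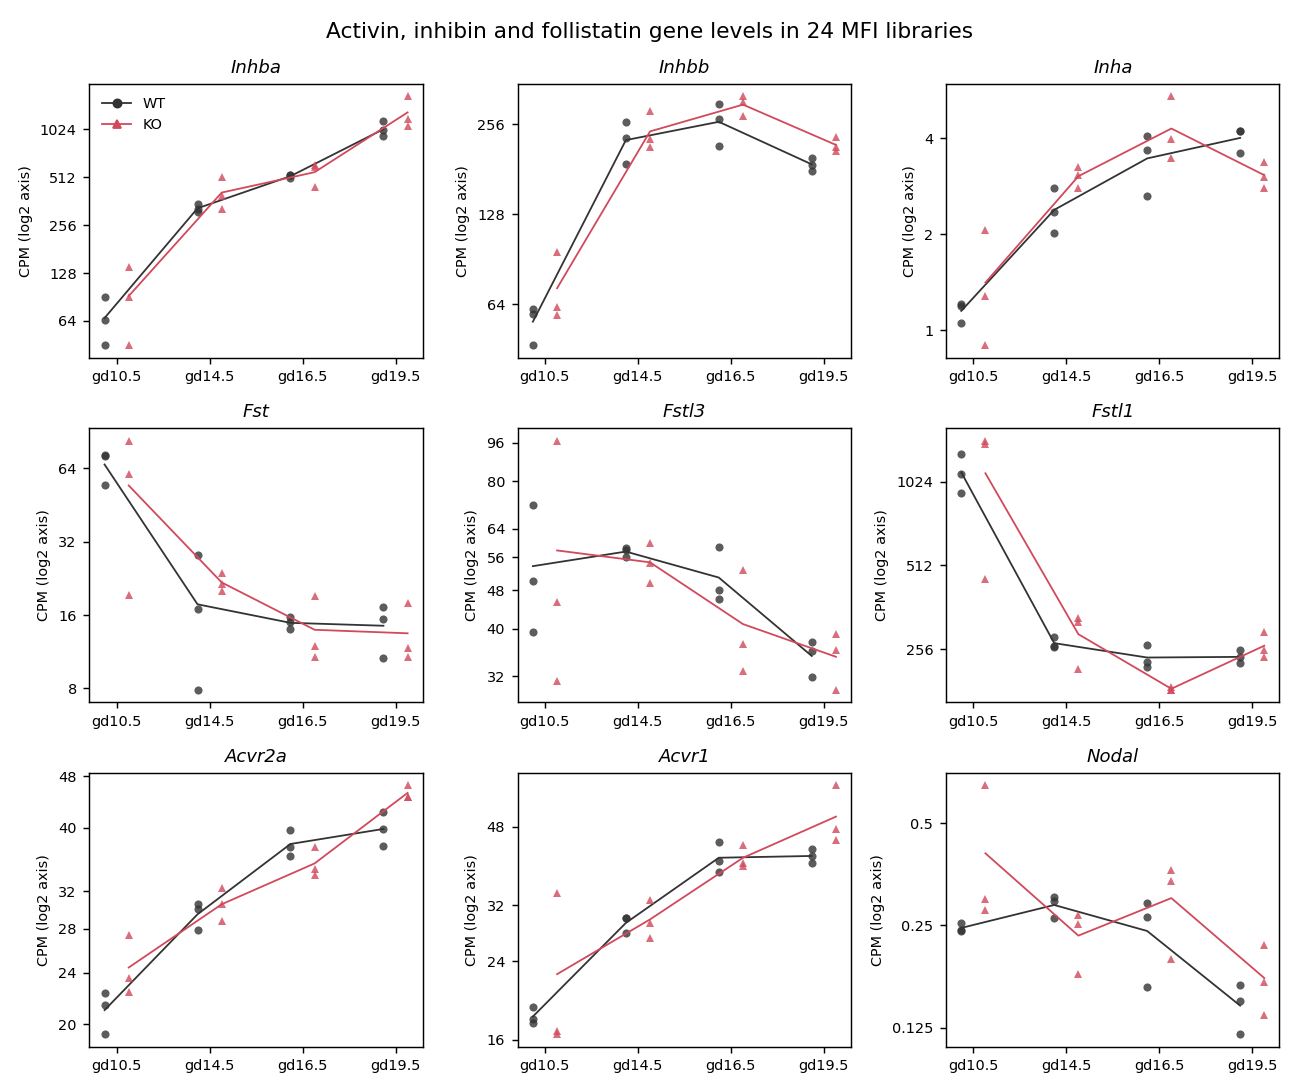
Level of each gene (CPM, log2 axis) by gestation stage, with 1 point per library, circles for WT and triangles for KO, and lines through the group means (n = 3). Inhba climbs at every stage, from a WT mean of 66.7 CPM at gd10.5 to 1028 CPM at gd19.5, while Fst and Fstl1 drop between gd10.5 and gd14.5.

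Inhba encodes the beta A subunit of activin A and inhibin A. In the 3 WT libraries its level was 64.7, 90.5 and 44.9 CPM at gd10.5, then 349, 323 and 308 CPM at gd14.5. It was 527, 505 and 530 CPM at gd16.5 and 1009, 926 and 1150 CPM at gd19.5. At each step every WT library of the later stage lay above every WT library of the earlier stage. The log2 fold change was 2.30 (SE 0.192, adjusted p = 7.47e-07) at the first step, 0.68 (SE 0.183, adjusted p = 0.019) at the second and 0.99 (SE 0.184, adjusted p = 0.0072) at the third. From gd10.5 to gd19.5 it was 3.96 (SE 0.206, adjusted p = 5.83e-09), a 15.6-fold rise. In a fit of all 24 libraries, the steps after gd14.5 lost their calls (adjusted p = 0.117 and 0.0575). The second step also lost its call without WT gd14.5 replicate 2 (adjusted p = 0.0563) or replicate 3 (adjusted p = 0.0733).

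Inhbb encodes the beta B subunit of activin B and inhibin B. In WT it had 59.3, 61.8 and 46.5 CPM at gd10.5 and 189, 261 and 231 CPM at gd14.5. These groups did not overlap, and the log2 fold change was 2.02 (SE 0.145, adjusted p = 2.15e-07). At gd16.5 the 3 libraries held 267, 217 and 300 CPM, which overlap those of gd14.5 (adjusted p = 0.313). At gd19.5 they held 198, 188 and 178 CPM, all below those of gd16.5, with a log2 fold change of -0.47 that missed the threshold (SE 0.139, adjusted p = 0.0579). DESeq2 called this fall (adjusted p = 0.0195), as did voom (adjusted p = 0.0436) and edgeR without WT gd10.5 replicate 3 (adjusted p = 0.0437) or WT gd16.5 replicate 2 (adjusted p = 0.0289). Inhbb thus had its highest WT mean at gd16.5, whereas Inhba had it at gd19.5.

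Inha encodes the alpha subunit, which only inhibins contain. Its WT level was 1.20, 1.19 and 1.06 CPM at gd10.5 and 2.34, 2.79 and 2.02 CPM at gd14.5. It reached 3.68, 4.06 and 2.63 CPM at gd16.5 and 4.22, 4.22 and 3.59 CPM at gd19.5. The libraries of gd10.5 lay below all later WT libraries, and those of gd14.5, gd16.5 and gd19.5 overlapped between neighbouring stages. The log2 fold change was 1.06 (SE 0.197, adjusted p = 0.000543) from gd10.5 to gd14.5 and 1.81 (SE 0.196, adjusted p = 3.6e-06) from gd10.5 to gd19.5. The step from gd14.5 to gd16.5 missed the threshold (0.54, adjusted p = 0.0554), and it was called without WT gd14.5 replicate 2 (adjusted p = 0.0483) or WT gd16.5 replicate 3 (adjusted p = 0.0167). Over the 24 libraries Inha was counted with 24 to 176 reads per library, so that its counting error is larger than that of the beta subunits, which had at least 1061 reads.

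Fst encodes follistatin. Its WT level was 72.0, 72.2 and 54.7 CPM at gd10.5 and 7.89, 17.0 and 28.3 CPM at gd14.5. It was 15.7, 14.98 and 13.96 CPM at gd16.5 and 15.4, 10.7 and 17.3 CPM at gd19.5. All 3 libraries of gd10.5 lay above every later WT library, and the later stages overlapped. The fall from gd10.5 to gd14.5 was -1.92 on the log2 scale (SE 0.324, adjusted p = 0.000251). From gd10.5 to gd19.5 it was -2.18 (SE 0.33, adjusted p = 6.96e-05). Of its exonic bases, 2.51% are shared with Gm47040 on the opposite strand.

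Fstl1, which encodes a secreted glycoprotein with a follistatin-like domain, fell by a similar amount from a higher level. In WT it had 1090, 1290 and 934 CPM at gd10.5, then 284, 261 and 263 CPM at gd14.5. The later libraries held 222, 230 and 266 CPM at gd16.5 and 254, 228 and 240 CPM at gd19.5. Every library of gd10.5 lay far above the others, which overlap between neighbouring stages. The log2 fold change was -2.03 from gd10.5 to gd14.5 (SE 0.117, adjusted p = 3.6e-08) and -2.18 from gd10.5 to gd19.5 (SE 0.118, adjusted p = 7.5e-09).

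Fstl3, which encodes the second activin-binding follistatin, did not share the early fall. Its WT level was 39.4, 50.0 and 71.7 CPM at gd10.5 and 58.0, 58.6 and 56.0 CPM at gd14.5. Later it was 45.9, 47.9 and 58.8 CPM (gd16.5) and then 37.6, 36.1 and 31.9 CPM (gd19.5). The libraries of gd10.5 spread around those of gd14.5 (log2 fold change 0.11, with 2 SE either side -0.22 to 0.44, adjusted p = 0.6). Leaving out WT gd10.5 replicate 3, the highest of its group, turned that comparison into a call at 0.36 (adjusted p = 0.0215). From gd10.5 to gd19.5 Fstl3 fell by 0.59 on the log2 scale (SE 0.168, adjusted p = 0.00744), and in a fit of all 24 libraries the fall was not called (adjusted p = 0.0678). The last step, from gd16.5 to gd19.5, was -0.53 (adjusted p = 0.0749), and it was called without WT gd10.5 replicate 1 (adjusted p = 0.029) or replicate 3 (adjusted p = 0.0135). Of the exonic bases of Fstl3, 47.3% are shared with Prss57 on the opposite strand. The authors' counting ignores strand and, at its default settings, drops reads that overlap the exons of both genes. Reads of Fstl3 in these bases were thus not counted, while its RPKM divide by the full exonic length. The Fstl3 level is therefore likely too low, by an unknown amount.

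The receptor genes rose in WT up to gd16.5, and their libraries of gd19.5 overlapped those of gd16.5. Acvr2a encodes a type II receptor of activins, and Acvr1 a type I receptor best known from BMP signalling. Acvr2a had 19.3, 21.4 and 22.4 CPM in WT at gd10.5 and 27.9, 30.5 and 30.0 CPM at gd14.5. At gd16.5 it had 36.2, 39.8 and 37.4 CPM, above all earlier WT libraries, and at gd19.5 it had 39.8, 42.2 and 37.5 CPM, which overlap those of gd16.5. Its log2 fold change over the whole span was 0.94 (SE 0.0763, adjusted p = 2.55e-07). Acvr1 began at 17.4, 17.8 and 18.9 CPM and held 27.8, 30.0 and 29.9 CPM at gd14.5. It had 40.3, 38.1 and 44.4 CPM by gd16.5, with 42.8, 41.2 and 39.9 CPM by gd19.5. It rose by 1.21 on the log2 scale over the span (SE 0.0722, adjusted p = 1.73e-08), with no change past the threshold after gd16.5 (0.02, adjusted p = 0.899). Its step from gd14.5 to gd16.5 (0.49, adjusted p = 0.000408) was not called in the fit of all 24 libraries (adjusted p = 0.0737). Orc4, on the opposite strand, shares 7.84% of the exonic bases of Acvr2a.

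Nodal, a ligand of the activin branch that acts in the early embryo, was close to the limit of detection. It had 3 to 17 counts per library, or 0.119 to 0.647 CPM, where 3 counts stand for 0.0773 to 0.149 CPM. It did not pass the expression filter in any reported fit, so that 8 of the 9 genes were tested. Its highest value was in KO gd10.5 replicate 2, and the other 5 libraries of gd10.5 held 0.241 to 0.299 CPM. Fitted without the filter, it was not called in any comparison, and its lowest adjusted p was 0.0717, for KO gd19.5 against KO gd10.5. When the 3 libraries of gd16.5 with yolk sac markers were left out, which leaves a group of 1 library, Nodal passed the filter. Its log2 fold change in that comparison was then -1.20. The comparison includes KO gd10.5 replicate 2, the library with its highest value.

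The marker sums of the tissue also differed between stages, most between gd10.5 and gd14.5. In WT, the spongiotrophoblast marker sum was 1172 to 1774 CPM at gd10.5 and 23184 to 25128 CPM at gd14.5. It was 20884 to 29381 CPM at gd16.5 and 18078 to 24056 CPM at gd19.5, ranges that overlap that of gd14.5. The sum of the 4 giant cell markers was 4979 to 7054 CPM at gd10.5 and 12325 to 13002 CPM at gd14.5. At gd16.5 this giant cell sum was 16426 to 23617 CPM, and at gd19.5 it was 22986 to 29758 CPM. The sum of the 5 decidual stroma markers was 5907 to 13282 CPM at gd10.5, 2662 to 2959 CPM at gd14.5, 1939 to 2762 CPM at gd16.5 and 2697 to 3947 CPM at gd19.5. The 4 NK cell markers summed to 385 to 585 CPM at gd10.5 and to 9.89 to 13.1 CPM at gd19.5. At gd16.5 and gd19.5, 1 of these NK cell markers was at 0 in at least 1 WT library. No spongiotrophoblast or decidual stroma marker was at 0 in any library. The part of these cell types in the stage differences was not tested, and in such bulk samples fewer cells of a type and less RNA per cell cannot be told apart. The 4 Y-linked transcripts summed to 0.0540 to 0.254 CPM in WT at gd10.5. In later WT libraries they summed to 0.663 to 168 CPM (gd14.5), 0.486 to 89.1 CPM (gd16.5) and 0.916 to 162 CPM (gd19.5). The part of this difference was not tested either.

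Per length, the leading transcript changed from Fstl1 to Inhba during gestation. At gd10.5 in WT the mean RPKM was 225 ± 36.2 (SD, n = 3) for Fstl1, 22.0 ± 6.73 for Fstl3, 14.4 ± 2.19 for Fst, 13.1 ± 1.93 for Inhbb and 10.4 ± 3.58 for Inhba. The receptor genes Acvr1 and Acvr2a followed at 3.74 ± 0.163 and 3.70 ± 0.276 RPKM, which overlap. Inha stood at 0.779 ± 0.0545 RPKM and Nodal at 0.117 ± 0.00331 RPKM. The RPKM ranges of Fst, Inhbb and Inhba overlapped at this stage. At gd19.5 Inhba led at 161 ± 17.7 RPKM, ahead of Fstl1 at 49.0 ± 2.59 and Inhbb at 44.2 ± 2.33 RPKM. Fstl3 stood at 14.4 ± 1.20 RPKM, Acvr1 at 8.55 ± 0.292, Acvr2a at 7.01 ± 0.416, Fst at 3.15 ± 0.744 and Inha at 2.72 ± 0.248 RPKM. At gd19.5 the ranges overlapped between Fstl1 and Inhbb and between Fst and Inha. The limit on Fstl3 given above holds for its place at both stages.

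The ratio of Inhba to Fst in RPKM, computed within each library, is independent of the scaling between libraries. In WT it was 0.645, 0.901 and 0.589 at gd10.5, so that Fst exceeded Inhba in all 3 libraries. It was 31.8, 13.7 and 7.83 at gd14.5 and 24.2, 24.2 and 27.3 at gd16.5, and it reached 47.1, 62.3 and 47.7 by gd19.5. The libraries of gd14.5 spread over the range of gd16.5, and both stages lay below gd19.5. In KO the ratio was 0.538, 5.14 and 0.787 at gd10.5, where the middle value is replicate 2. The later KO ratios were 13.1, 15.7 and 11.5 (gd14.5), then 35.9, 23.1 and 29.7 (gd16.5), then 43.0, 111 and 73.6 (gd19.5). At each stage the KO and WT ranges of this ratio overlapped. Of 32 such comparisons, of 8 ratios at 4 stages, 2 did not overlap, and they are given with their ratios.

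Both activin-binding follistatins together, set against both beta subunits, had a mean RPKM ratio in WT of 1.63 ± 0.581, 0.263 ± 0.0186, 0.169 ± 0.0135 and 0.0860 ± 0.00877 (SD, n = 3) over the 4 stages in order of age. The ranges of the 4 stages did not overlap, and the limit on Fstl3 given above holds here too. At gd14.5 this ratio was 0.210 to 0.242 in KO, below the 0.247 to 0.283 of WT. The ratio of Inhba to Inhbb was 0.781 ± 0.173, 0.982 ± 0.219, 1.35 ± 0.189 and 3.66 ± 0.554 at the same stages, and only the range at gd19.5 was apart from that of its neighbour. Inha relative to the sum of the beta subunits fell from 0.0340 ± 0.00593 at gd10.5 to 0.0154 ± 0.00186 at gd14.5 and 0.0134 ± 0.00216 at gd19.5, although its own level rose. At gd19.5 it was 0.00613 to 0.0102 in KO, below the 0.0110 to 0.0151 of WT. With 3 libraries a side no permutation test of these ratios can pass 0.05. Fstl3 exceeded Fst in every WT library, with ratios of 1.03 to 2.46 at gd10.5 and 3.46 to 6.35 at gd19.5, with the limit on Fstl3 given above.

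**Figure D2:**
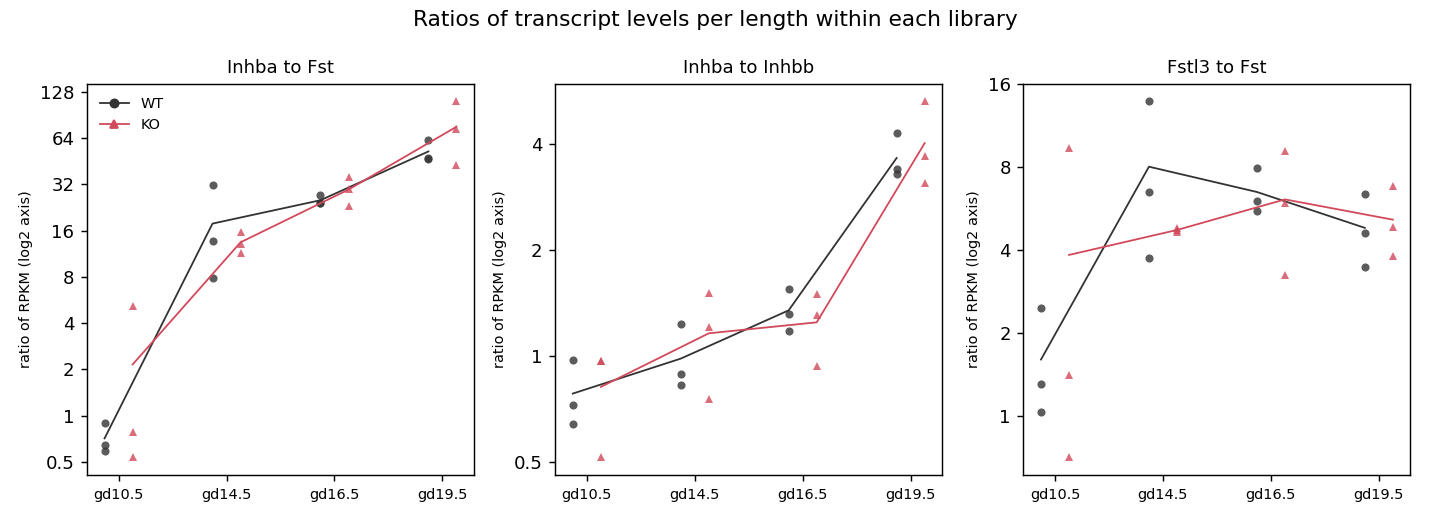
Ratios of RPKM values within each library (log2 axis) by stage, with 1 point per library, circles for WT and triangles for KO, and lines through the group means (n = 3). Inhba to Fst lies below 1 in the WT libraries of gd10.5 and reaches 47.1 to 62.3 at gd19.5, Inhba to Inhbb separates from the earlier stages at gd19.5, and Fstl3 to Fst lies above 1 in every WT library.

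Whether loss of C1qtnf6 changed these genes was asked at each stage. None passed in any of the 32 comparisons (8 genes at 4 stages) of KO with WT by edgeR. Over the stages in order of age, the share of all genes called was 0.00572%, 0.0166%, 0.00586% and 0.115%, so that few genes were called at all. At an unadjusted p under 0.05, the members counted 0, 1, 1 and 4 of 8 in the same order, where the share of all genes tested was 0.801%, 6.78%, 11.1% and 13.5%. KO and WT libraries did not overlap for 1, 1, 1 and 4 of the 8 genes, where the share of all genes was 4.18%, 12.5%, 17.7% and 21.4%. With 3 libraries against 3, the smallest p that an exact permutation test allows is 0.1. DESeq2 called 1 of the 8 at gd16.5 (Fstl1), where it called 1.07% of all genes. Without its expression filter, edgeR called Inhba at gd14.5 (0.709% of all genes) and at gd19.5 (1.98%).

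**Figure D3:**
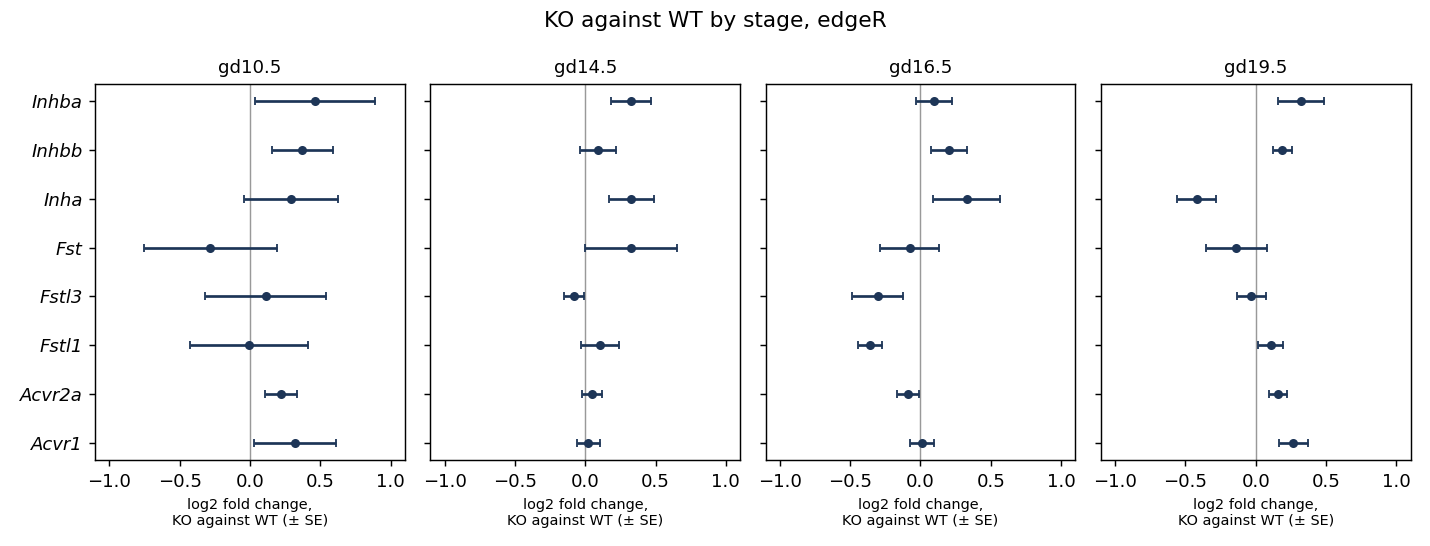
Log2 fold change of KO against WT at each stage by edgeR, with the standard error as bars and 3 libraries per group. The values lie between -0.42 (Inha at gd19.5) and 0.46 (Inhba at gd10.5), and the bars are widest at gd10.5.

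Inhba was higher in KO on average at all 4 stages, with overlapping libraries at each. Its log2 fold changes were 0.46 (with 2 SE either side, -0.39 to 1.31), 0.32 (0.04 to 0.61), 0.10 (-0.16 to 0.36) and 0.32 (-0.00079 to 0.65) in order of age, with adjusted p-values of 0.413 or higher. Without KO gd10.5 replicate 2, the value at gd10.5 was 0.04 (SE 0.368). The KO libraries of gd19.5 held 1076, 1661 and 1196 CPM, of which the middle is the highest of the 24 libraries. The value at gd16.5 changed sign with Y-linked expression as a covariate (-0.03) and without the 3 libraries that held yolk sac markers (-0.20). Without the expression filter, Inhba was called at gd14.5 (0.32, adjusted p = 0.00406) and at gd19.5 (0.33, adjusted p = 0.0175). At gd14.5, 2 of 11 marker sums did not overlap between KO and WT, that of the labyrinth (517 to 539 CPM in KO, 575 to 659 CPM in WT) and that of red cells (2662 to 3207 CPM and 2460 to 2626 CPM).

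At gd16.5, Fstl1 was lower in KO, at 188, 183 and 184 CPM against 222, 230 and 266 CPM in WT. Each KO library was thus below each WT library. The log2 fold change was -0.36 (SE 0.0859), with an adjusted p of 0.363 in edgeR and of 0.0302 in DESeq2. Leaving out the libraries 1 at a time gave values from -0.41 to -0.28. At this stage the spongiotrophoblast sum was 35482 to 38520 CPM in KO and 20884 to 29381 CPM in WT. The NK cell sum was 6.16 to 10.8 CPM in KO and 20.3 to 37.01 CPM in WT, and only 1 NK cell marker, Prf1 (-1.84), passed the expression filter. The giant cell sum was 24777 to 28958 CPM in KO and 16426 to 23617 CPM in WT, and the smooth muscle sum 101 to 107 CPM and 130 to 164 CPM. Of 11 lists of cell type markers, these 4 did not overlap between KO and WT at gd16.5. The decidual stroma sums overlapped (1793 to 2435 and 1939 to 2762 CPM), yet all 5 of their markers had lower values in KO, from -0.14 for Prl8a2 to -0.72 for Pgr on the log2 scale. Of these 5, 3 had an edgeR unadjusted p under 0.05 and none was called. All markers tested were also lower in KO for endothelium (4), smooth muscle (4), labyrinth (3) and red cells (3). For giant cells (4), spongiotrophoblast (3) and yolk sac endoderm (3), all were higher. The part of these cell types was not tested. Without the 3 libraries that held yolk sac markers, Fstl1 was at -0.42 (SE 0.246). Fstl1 was not lower in KO at gd14.5 (0.10) or gd19.5 (0.11), where the groups overlapped.

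At gd19.5, Inha was lower in KO and 3 other genes were higher, with no overlap of the groups. Inha had 3.36, 2.79 and 3.03 CPM in KO against 4.22, 4.22 and 3.59 CPM in WT, a log2 fold change of -0.42 (SE 0.14, edgeR adjusted p = 0.264). Inhbb had 232, 209 and 215 CPM against 198, 188 and 178 CPM (0.19, SE 0.0655, adjusted p = 0.277). Acvr1 had 44.8, 59.5 and 47.5 CPM against 42.8, 41.2 and 39.9 CPM (0.27, SE 0.103, adjusted p = 0.314), and Acvr2a had 46.5, 44.6 and 44.6 CPM against 39.8, 42.2 and 37.5 CPM (0.16, SE 0.0653, adjusted p = 0.346). None passed the threshold. At this stage 5 of the 11 marker sums did not overlap between KO and WT. The sum of the 5 mesothelium markers was 134 to 154 CPM in KO and 111 to 129 CPM in WT, with no marker at 0. Of its 4 markers tested, Lrrn4 was called higher in KO (0.87, SE 0.0893, edgeR adjusted p = 0.0153), and the others were at -0.10 (Msln), -0.0050 (Wt1) and 0.14 (Upk1b). The smooth muscle sum was 156 to 243 CPM in KO and 110 to 141 CPM in WT, with all 4 markers higher in KO. The macrophage sum was 932 to 974 CPM in KO and 777 to 888 CPM in WT. Of its 3 markers, Csf1r was higher in KO (0.23), while Adgre1 (-0.10) and Cd68 (-0.020) were lower. The NK cell sum was 5.45 to 9.83 CPM in KO and 9.89 to 13.1 CPM in WT, and only 1 NK cell marker, Prf1 (-0.56), passed the expression filter. The decidual stroma sum was 2160 to 2505 CPM in KO and 2697 to 3947 CPM in WT, but its markers did not move one way, with Prl8a2 at -0.54, Pgr at -0.23 and Cryab at -0.05, and with Wnt4 at 0.25 and Hand2 at 0.35. The part of these cells in the differences was not tested.

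Across the 4 stages in an additive fit, Inhbb was higher in KO by 0.22 on the log2 scale (SE 0.0799, edgeR adjusted p = 0.721) and Inhba by 0.30 (SE 0.137, adjusted p = 0.746). None of the 8 genes was called, where 0.0155% of the 19299 genes tested were, and 2 of 8 had an unadjusted p under 0.05 (6.34% of all genes). Without KO gd10.5 replicate 2, Inhbb was at 0.16 (SE 0.0645, edgeR adjusted p = 0.469) and Inhba at 0.21 (SE 0.12, adjusted p = 0.63). The edgeR unadjusted p was then 0.0947 for Inhba, 0.0231 for Inhbb and 0.0498 for Fstl3 (-0.21), and Fst and Fstl1 turned sign. The genotype-by-stage interaction called 0 of the 8 genes in edgeR (0% of all genes), and 1 of 8 (Acvr2a, edgeR adjusted p = 0.69) had an unadjusted p under 0.05 (7.23% of all genes). The precision was lowest for Fst at gd10.5, where 2 SE either side of the KO effect spanned -1.23 to 0.67 and so included a level over 2-fold lower.

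The KO libraries passed through the same stages. From gd10.5 to gd19.5, 7 of 8 genes were called in KO (5 higher, 2 lower), against 58.4% of all 18467 genes tested (28.4% higher, 30% lower), and the gene without a call was Fstl3 (-0.72, adjusted p = 0.0818). The KO log2 fold changes were 3.83 for Inhba, 1.59 for Inhbb, 1.11 for Inha, 1.17 for Acvr1, 0.88 for Acvr2a, -2.02 for Fst and -2.06 for Fstl1. Fstl3 was called without KO gd10.5 replicate 3 (-1.03, adjusted p = 0.0101). Without KO gd10.5 replicate 2 it was at -0.13 (SE 0.202, edgeR adjusted p = 0.611), so that its fall in KO depended on that library. From gd10.5 to gd14.5 it was 6 of 8, against 46.2% of all genes. The call of Fst at this step (-1.32, adjusted p = 0.0227) was lost without any of KO gd10.5 replicates 1 and 3 and KO gd14.5 replicates 1, 2 and 3 (adjusted p from 0.0524 to 0.107), and that of Acvr2a (0.32, adjusted p = 0.0115) without KO gd14.5 replicate 3 (adjusted p = 0.0538). From gd14.5 to gd16.5 and from gd16.5 to gd19.5 it was 0 of 8 by edgeR, against 17.5% and 1.24%, with 1 and 3 of the 8 genes at an unadjusted p under 0.05 (32.4% and 18.3% of all genes). DESeq2 called 2 genes at the last step (Inhba at 1.25 and Acvr2a at 0.36), where it called 6.47% of all genes, and edgeR called Acvr2a without KO gd10.5 replicate 3 (adjusted p = 0.0466).

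These KO counts depended on replicate 2 of gd10.5. Its Fst level was 19.4 CPM, against 60.6 and 83.0 CPM in the other KO libraries of gd10.5, and its Fstl1 level was 456 CPM, against 1436 and 1397 CPM. It held 139 CPM of Inhba, against 45.4 and 90.9 CPM, and 34.1 CPM of Acvr1, against 16.46 and 16.8 CPM. In log2 CPM relative to the WT mean of gd10.5 it stood at -1.76 for Fst and -1.26 for Fstl1, between the levels of gd10.5 and the WT mean of gd14.5 (-2.07 and -2.02). Fstl3, at 96.9 CPM the highest of the 24 libraries, and Acvr1 lay beyond the WT mean of gd14.5.

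**Figure D4:**
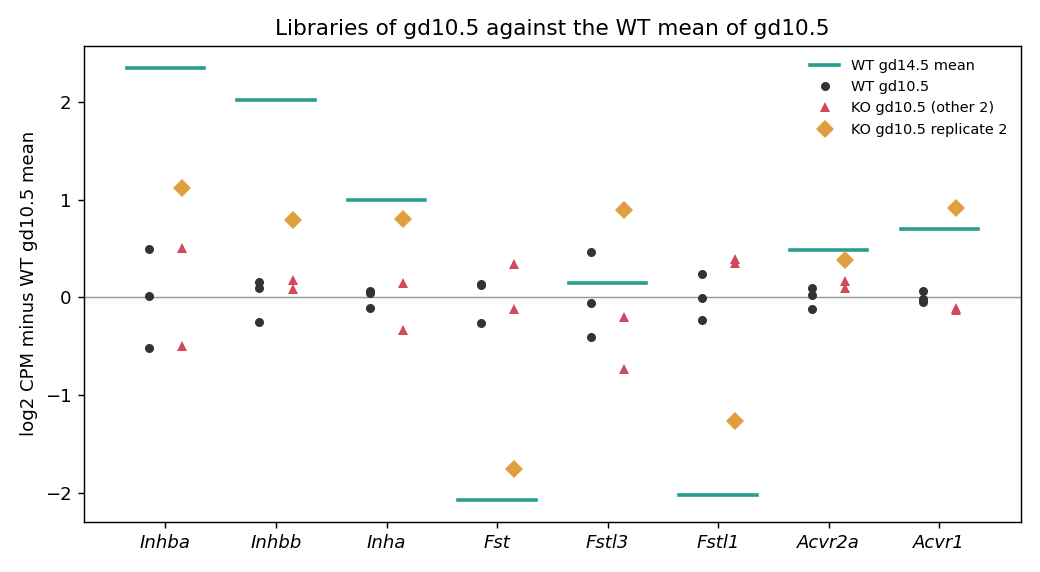
Log2 CPM of each gene in the 6 libraries of gd10.5 minus the WT mean of gd10.5 (circles WT, triangles KO replicates 1 and 3, diamonds KO replicate 2), with the WT mean of gd14.5 as a horizontal bar. KO replicate 2 is displaced in the direction of the gd14.5 mean for all 8 genes and lies beyond it for Fstl3 and Acvr1. For Fstl3 that direction is not established, as WT libraries of gd10.5 run from -0.40 to 0.46 around a gd14.5 mean of 0.14.

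Without that library, 8 of 8 genes were called from gd10.5 to gd14.5 in KO (56.3% of all genes), 3 of 8 from gd14.5 to gd16.5 (27.7%), 4 of 8 from gd16.5 to gd19.5 (8.63%) and 7 of 8 over the span (63.3%). The steps that do not involve gd10.5 come from the same fit, and without the library 19003 genes were tested in place of 18467. Why these counts moved was not tested. Fstl1 was then called lower from gd14.5 to gd16.5 (-0.65, adjusted p = 0.00607) and higher from gd16.5 to gd19.5 (0.51, adjusted p = 0.0448). Inhbb was called lower from gd16.5 to gd19.5 (-0.45, adjusted p = 0.0271), while Inhba was called higher (1.25, adjusted p = 0.0201). Fstl3 changed sign from gd10.5 to gd14.5, from -0.08 (adjusted p = 0.852) to 0.52 (adjusted p = 0.0485). In the comparison of KO with WT at gd10.5, its removal left 0 of 8 genes called (0.0336% of all genes) and turned the sign of Inha, Fst, Fstl1, Fstl3 and Acvr1, with Fstl1 at 0.36 (SE 0.162) in place of -0.0060 (SE 0.42).

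Ordered by group mean, neighbouring groups often could not be told apart. For Fst and Fstl3, all 7 neighbouring pairs of the 8 groups overlapped. For Inhba 5 of 7 overlapped, and the gaps lay between WT gd19.5 and KO gd16.5 and between WT gd14.5 and KO gd10.5. For Acvr2a 3 of 7 overlapped, the fewest of the 9 genes.

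Of 66 other genes of the pathway, in 7 lists, 55 were tested in WT from gd10.5 to gd19.5, and 29 were called higher and 13 lower, beside the shares of all genes given above. In KO it was 27 higher and 14 lower of 55. None was called in KO against WT at any stage (208 comparisons, lowest adjusted p = 0.0684). At an unadjusted p under 0.05 it was 0 of 52, 7 of 53, 7 of 51 and 18 of 52 in order of age (0%, 13.2%, 13.7% and 34.6%), where the share of all genes tested was 0.801%, 6.78%, 11.1% and 13.5%.

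Among receptors and coreceptors, 9 of 13 tested genes were higher at gd19.5 in WT and 1 was lower, with a median log2 fold change of 1.19. The largest changes were in Igsf1 (4.62, adjusted p = 4.93e-07), which encodes an immunoglobulin superfamily membrane protein, Acvrl1 (1.93), a type I receptor of endothelium, and Acvr1b (1.84, adjusted p = 5.69e-09), the main type I receptor of activin. Igsf1 rose from 1.24 ± 1.02 to 29.9 ± 8.41 CPM (SD, n = 3) and Acvr1b from 21.4 ± 2.01 to 75.9 ± 4.43 CPM. Of the Smads and their regulators, 10 of 13 were higher and 1 lower, with a median of 0.58. Smad3, a transducer of activin and TGF-beta, rose from 14.02 ± 1.49 to 75.9 ± 4.15 CPM (2.45, adjusted p = 1.45e-09) and Skil, an inhibitor of Smad transcription, by 1.84 (adjusted p = 1.1e-08), while Smad9, a transducer of BMP signals, fell by 4.12 on the log2 scale (adjusted p = 1.3e-08).

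The other ligands did not move as a group. Of the other activin and nodal branch ligands, 3 of 8 were tested, and Lefty1 (-1.43, adjusted p = 0.00237), an inhibitor of Nodal, and Gdf11 (-0.98, adjusted p = 0.00067) were lower. Lefty1 was low throughout, with 0.778 ± 0.286 CPM at gd10.5. Of the TGF-beta ligands 1 of 3 was called, Tgfb2 (0.36, adjusted p = 0.0359). Of the BMP ligands 3 of 7 were higher and 2 lower, led by Bmp2 (-3.58, adjusted p = 1.12e-08), a factor of decidualization, Bmp4 (2.96, adjusted p = 1.92e-07) and Bmp6 (2.39, adjusted p = 6.62e-08). Bmp2 fell from 58.1 ± 14.6 to 4.82 ± 0.517 CPM.

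The extracellular antagonists and other follistatin domain proteins split evenly, with 5 of 13 higher and 5 lower. The BMP antagonist Grem1 was counted at 0 to 0.0688 CPM in WT at gd10.5 and at 1.83 to 3.03 CPM at gd19.5 (adjusted p = 2.14e-06), and its fold is not given because the earlier level is under the limit of detection. The follistatin domain gene Smoc2 fell by 2.64 on the log2 scale (adjusted p = 5.9e-06). All 3 convertases, which cut the precursors of these ligands, were called, with Pcsk6 at -2.87 (adjusted p = 8.57e-09), Pcsk5 at -2.41 (adjusted p = 1.04e-06) and Furin at 0.66 (adjusted p = 6.9e-05).

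Genes whose log2 CPM was most like that of each member over the 24 libraries were found among the 19299 genes that pass the filter, as a description, since the libraries share their stages. For Inhba they were Abca13 (Pearson's r = 0.986), 4930447F24Rik and Zfyve1, and for Inhbb Fbln1 (r = 0.984) and Ptgdr2. For Inha they were Sfi1 (r = 0.958), Prdm9 and Zmym6. The closest to Fst were Trbj1-5 (r = 0.933), A730035I17Rik and Gas7, and to Fstl1 Rhoj (r = 0.99), Gfpt2 and Pkdcc. For Acvr1 they were Serinc5 (r = 0.985), Rassf3 and Ttc39a, for Acvr2a Pmepa1 (r = 0.978), Ankrd40 and Foxn3, and for Fstl3 Mex3b (r = 0.899), Rap2c and Txnrd2. No member was among the 3 genes closest to another. Among the members, r was 0.948 between the receptor genes Acvr1 and Acvr2a, 0.827 between the beta subunits, 0.895 between Fst and Fstl1 and 0.0414 between Fst and Fstl3.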

How the data were processed

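The authors trimmed reads with Trim Galore 0.6.4, aligned them to GRCm38 with STAR 2.7.3a and counted them on genes with featureCounts of Subread 2.0.0. The default settings were used, which ignore strand and drop reads that map to several places or overlap several genes. They deposited raw counts for 55401 genes in 24 libraries, with exonic lengths. Libraries were grouped by genotype and stage, and numbered as in their descriptions (the KO titles use other numbers). Here, edgeR 4.0.16 in R 4.3.3 (filterByExpr with a minimum count of 10 and a minimum total of 15, TMM, quasi-likelihood test) was fitted to all genes, per stage for KO against WT, per genotype for stages, and to all 24 libraries for the additive and interaction fits. Calls had a Benjamini-Hochberg adjusted p under 0.05 over all genes tested. Log2 CPM used a prior count of 2. CPM came from scaling all 24 libraries together, so that their ratios differ slightly from fitted folds. Intervals are 2 SE either side of a fitted value. Genes named were all 9 members, C1qtnf6, the 3 largest called changes per pathway list in WT from gd10.5 to gd19.5, and the 3 genes most like each member; some of the genes so chosen are not reported here. Members, lists and tests were chosen with earlier results of these data known. Same-numbered libraries did not deviate together between genotypes (r from -0.455 to 0.406, over 0.1 in 5 of 12 pairs) or stages (0 of 18), so that numbers were not used as pairs. Alternatives were other size factors, filters, thresholds and tools (DESeq2 1.42.0, voom of limma 3.58.1), a joint fit, a replicate block, a covariate of Y-linked expression, leaving out 1 library at a time and, added after seeing the data, leaving out 3 libraries of gd16.5 together. The steps were tested on simulated data.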

Additional observations from a re-analysis of the deposited data

Results flagged for a closer look

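Inha was the 1 gene whose KO libraries all lay above WT at one stage and all below at another. Its log2 fold change of KO against WT was 0.33 at gd14.5 (2.80, 3.06 and 3.25 CPM in KO, 2.34, 2.79 and 2.02 CPM in WT) and -0.42 at gd19.5. Neither was called (edgeR adjusted p = 0.743 and 0.264). Of all genes tested, 12.5% did not overlap between KO and WT at gd14.5 and 21.4% at gd19.5. The share that did so in opposite directions was not counted. At gd14.5 the lowest KO library (2.799 CPM) lay barely above the highest WT library (2.790 CPM), with 48 to 101 reads in WT and 85 to 119 in KO. The genotype-by-stage interaction over all 4 stages did not pass for Inha (edgeR adjusted p = 0.724), and the difference between these 2 stages alone was not tested.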

How the results depend on the processing

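All 8 genes kept the direction of their called stage differences under every alternative run. Of 104 fold changes of single genes, 26 changed sign under at least 1 alternative, and none of these was called in the reported fit. The cause was not tested, except where fewer libraries or another set of genes enter by construction. The share of all genes that the same setting called stands in parentheses. Called genes in KO against WT numbered 1 at gd14.5 (0.709%) and 1 at gd19.5 (1.98%) without the expression filter, and 1 at gd16.5 by DESeq2 (1.07%). From gd14.5 to gd16.5 in WT, 1 gene was called in the joint fit of 24 libraries (18.1%) and 0 when a log2 fold change over 1 was required (5.6%). From gd16.5 to gd19.5 in WT, it was 3 without the filter (6.6%), 3 by DESeq2 (10.6%), 3 by voom (1951 of 18523 genes) and 3 at an adjusted p under 0.1 (13.2%), but 0 in the joint fit (4.64%) and 0 with the fold requirement (2.14%), and 1 to 3 with a library left out (2.87% to 9.66%). In KO, voom called 5 from gd14.5 to gd16.5 (33.3%), and leaving out a library gave 0 to 3 (7.29% to 27.7%). In KO from gd16.5 to gd19.5, the count was 1 without the filter (1.94%), 2 by DESeq2 (6.47%), 3 by voom (6.58%), 2 in the joint fit (5.98%), 2 at an adjusted p under 0.1 (5.1%) and 0 to 4 with a library left out (0% to 8.63%), the highest being without KO gd10.5 replicate 2. Without the 3 libraries of gd16.5 with yolk sac markers, an alternative chosen after seeing the data, no count of calls moved by over 1.5 times, and the values that changed sign were -0.20 for Inhba and -0.057 for Acvr1 in KO against WT at gd16.5, 0.0084 for Fstl1 and 0.00048 for Fstl3 over all stages, and from gd16.5 to gd19.5 -0.043 for Fstl1 in WT and 0.31 for Fst in KO.

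Log2 fold changes of KO against WT at gd10.5 that changed sign by voom were Inha -0.12, Inhba -0.088, Fstl1 0.23, Fstl3 -0.17 and Acvr1 -0.022. With Y-linked expression as a covariate they were Inha -0.092, Fst 0.15, Fstl1 0.39, Fstl3 -0.48 and Acvr1 -0.12. With a library left out, the ranges at gd10.5 were Inha -0.073 to 0.53, Fst -0.73 to 0.12, Fstl1 -0.25 to 0.36, Fstl3 -0.48 to 0.42 and Acvr1 -0.11 to 0.50. At gd14.5 they were Inhbb -0.039 to 0.21, Fst -0.038 to 0.81, Fstl1 -0.0026 to 0.27 and Acvr1 -0.056 to 0.083. At gd16.5 the covariate gave Inhba -0.033 and Acvr1 -0.0066, and Acvr1 was -0.0096 without the filter and -0.00046 in the joint fit. Leave-one-out ranges there were Fst -0.38 to 0.078 and Acvr1 -0.042 to 0.071. At gd19.5 Fst was 0.047 by voom, 0.032 with the covariate and -0.39 to 0.023 with a library left out, and Fstl3 was -0.11 to 0.071. Over all stages, voom gave Fst 0.14 and Fstl1 0.022, the covariate gave Fstl1 0.030, and leaving out a library gave Fst -0.14 to 0.063 and Fstl1 -0.087 to 0.043.

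Between stages in WT, Fst from gd14.5 to gd16.5 was 0.059 by voom and -0.59 to 0.26 with a library left out. From gd16.5 to gd19.5 without the filter, Fstl1 was -0.016 and Acvr1 -0.010. The ranges with a library left out were Fst -0.19 to 0.14, Fstl1 -0.043 to 0.092 and Acvr1 -0.030 to 0.077 there, and Fstl3 -0.077 to 0.36 from gd10.5 to gd14.5. In KO, Fstl3 from gd10.5 to gd14.5 was 0.35 by voom and -0.38 to 0.52 with a library left out. From gd16.5 to gd19.5, Fst was 0.021 by voom and -0.32 to 0.24 with a library left out, and Fstl3 was -0.36 to 0.0027.

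With a replicate block, no count of calls moved by over 1.5 times. Fst in KO from gd10.5 to gd14.5 lost its call (-1.27, adjusted p = 0.0513), and Inha in WT from gd14.5 to gd16.5 gained 1 (0.53, adjusted p = 0.0332). Scaling by total counts in place of TMM moved 14 of 72 group means by over 1 SD. Counting limits are widest for Nodal, with at most 17 counts per library.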
